A study of Mus musculus with 6 samples.

Results

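Il17b encodes a secreted cytokine of the IL-17 family, and it is followed here with 6 relatives in the intervertebral discs (IVDs) of mice that lack the adhesion receptor Adgrg6 in the disc. The 7 genes are 2 ligands, Il17b and Il17d, and the 5 receptor genes Il17ra, Il17rb, Il17rc, Il17rd and Il17re, out of 43472 gene symbols in the count files. Il17b was selected on its measured values, since its level had been seen to be lower in these same mutant libraries. Its difference between the genotypes is therefore given as a description, with no test. The other 6 genes were taken from the same family. All 7 were found under their symbols in every library and passed the filter on low counts. The 4 ligand genes of the family that failed this filter are not among the 7, so passing it is not a result.

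The study sequenced poly(A) RNA from whole IVDs of the thoracic and lumbar spine (T8-L5) at postnatal day 20, in 6 libraries. The 3 mutant libraries came from Col2Cre;Adgrg6 f/f mice and the 3 control libraries from littermates, all of the strain given as C57B6/J, and each library is a pool of IVDs from 2 to 3 mice. The control mice are wild type in the genotype labels, Col2Cre controls in the titles and Cre (-) littermates in the study's results section, and these cannot be told apart from the counts. Col2Cre is a Cre recombinase under a type II collagen promoter, which according to the study recombines throughout the IVD during embryonic development. With such pools, the spread between libraries is a spread between pools and not between single mice. Since a whole disc was sequenced, fewer cells of a type and less RNA per cell cannot be told apart.

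The IL-17 family consists of small cytokines that signal through paired receptor chains. IL-17A and IL-17F bind a pair of IL-17RA and IL-17RC, IL-25 (also called IL-17E) needs IL-17RB with IL-17RA, and IL-17C uses IL-17RE with IL-17RA. IL-17B also binds IL-17RB. IL-17D has no long-established receptor in the family, and the surface protein CD93 has been described as one. The receptor chains carry a SEFIR domain that recruits the adaptor Act1 (gene Traf3ip2), from where TRAF proteins lead to NF-kB, MAP kinases and C/EBP factors. IL-17RD, also named SEF, is best known as an inhibitor of FGF receptor signalling to ERK. In cartilage, IL-17A is studied mainly as an inducer of matrix-degrading enzymes, while much less is known of the other ligands.

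The depth on genes was 9061491 to 12017008 counts. Values are counts per 1000000 counts of a library (CPM), with library sizes scaled by TMM, and a log2 fold change is that of mutant over control libraries. Control library 1 stood apart in skeletal muscle: the summed level of 6 muscle genes was 3623 CPM in it and 63.2 to 141 CPM in the other 5 libraries. The tissue label held in all 6, with Col2a1, the main collagen of cartilage, at a mean of 94670 CPM in control and 113942 CPM in mutant libraries. The targeted gene, listed by its older symbol Gpr126, was measured over its whole length and does not check the deletion (log2 fold change 0.17, standard error 0.18).

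Among the ligands, Il17b had 51.9, 61.2 and 48.2 CPM in control libraries 1, 2 and 3, and 19.0, 24.1 and 20.9 CPM in mutant libraries 1, 2 and 3. The 2 groups did not overlap, and the lowest control library was well above the highest mutant library. These values rest on 485, 551 and 617 counts in control and 167, 295 and 197 counts in mutant libraries. The mean was 53.8 ± 6.67 CPM in control and 21.3 ± 2.56 CPM in mutant libraries (SD, n = 3), so that mutant discs had 0.397 times the control mean. This is a log2 fold change of -1.33 with a standard error of 0.17. With any 1 library left out it lay between -1.41 and -1.22, and it was -1.33 without control library 1. Il17b lies on chromosome 18 from 61684887 to 61692538 on the forward strand (GENCODE M21, GRCm38).

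**Figure D1:**
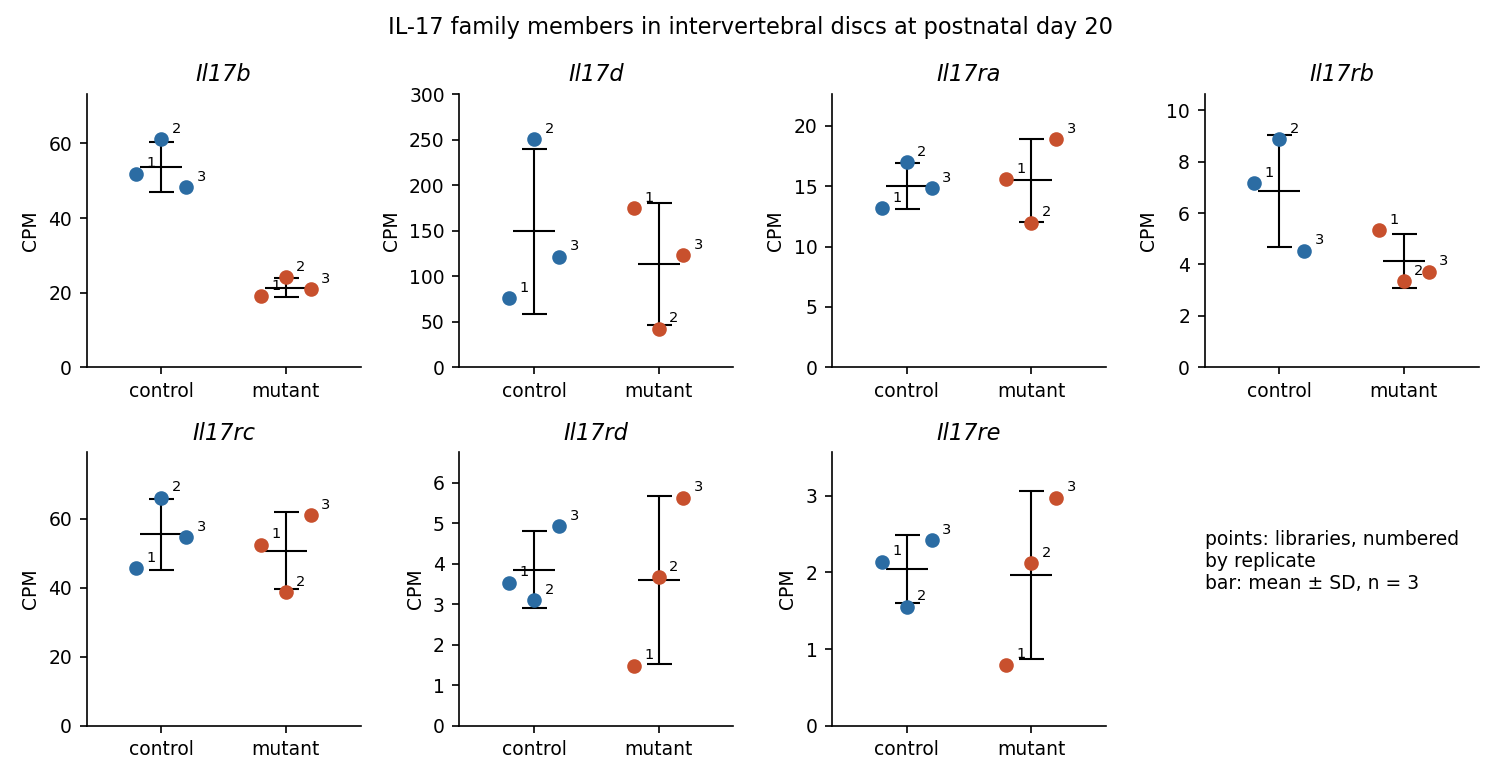
Level of each of the 7 genes in CPM (vertical axis, from 0) in the 3 control (blue) and 3 mutant (orange) libraries, numbered by replicate, with the mean and SD (n = 3) in black. Il17b is separated, with 48.2 CPM in the lowest control and 24.1 CPM in the highest mutant library, while the groups of the other 6 genes overlap.

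Il17d encodes the only other ligand of the family at a level above the filter. It had 76.1, 251 and 122 CPM in the control libraries and 175, 42.4 and 124 CPM in the mutant libraries. Each group spanned the greater part of the whole range, with control library 2 highest and mutant library 2 lowest, 5.91 times apart. Its log2 fold change was -0.40 (standard error 0.50, adjusted p = 0.875 from the quasi-likelihood test of edgeR, adjusted over all genes tested by the method of Benjamini and Hochberg), and the 95% confidence interval ran from -1.52 to 0.73. The interval thus includes a fall as large as that of Il17b. Without control library 2 the value was 0.19, and without mutant library 2 it was 0.017. Il17d lies on chromosome 14 from 57524777 to 57543166. Its receptor candidate Cd93, a gene of endothelial and myeloid cells, had 29.4, 9.21 and 12.4 CPM in control and 22.2, 19.8 and 23.9 CPM in mutant libraries, with overlap (log2 fold change 0.37, standard error 0.37, adjusted p = 0.839). Without control library 1, Cd93 was higher by 1.04 on the log2 scale at an unadjusted p under 0.05 (adjusted p = 0.094), and so were 3 of 5 endothelial markers, Pecam1, Cdh5 and Kdr. In that fit 5.25% of the 17164 genes tested were higher and 8.89% lower at this threshold, 2427 genes in all, as against 1164 of 16152 with all libraries.

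The other ligands were at or close to the limit of detection, and none passed the filter. Il17a, the ligand of Th17 cells, had 0 counts in all 6 libraries, which allows up to 0.235 to 0.341 CPM in a library (3 counts, counting error only). Il17f had 0, 7 and 6 counts in control libraries and 2, 0 and 0 in mutant libraries. Il25 had 8, 2 and 4 counts in control and 10, 4 and 3 in mutant libraries, and the groups overlapped. Il17c also had 0 counts in every library, but this is not taken to limit its level, since reads there may have been assigned elsewhere. Il17c lies inside the annotated gene Gm20388 on the same strand, as does Zc3h18, a gene of RNA processing. Zc3h18 was at 0 counts in all 6 libraries too, whereas Gm20388 itself had 1155 to 2670 CPM. Il17c and Gm20388 share 0 bases of exon in GENCODE M21, and how reads there were assigned was not tested. No fold is given for these 4 ligands. Markers of the T cells and innate lymphoid cells that make IL-17A and IL-17F were likewise close to 0, with Cd3d and Cd8a at 0 or 1 count and Cd3e at 0 to 3 counts per library.

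Among the receptors, Il17rb encodes the chain that IL-17B binds. Il17rb had 7.17, 8.88 and 4.53 CPM in control libraries and 5.35, 3.35 and 3.72 CPM in mutant libraries. Of the 6 genes other than Il17b it had the log2 fold change furthest from 0, but control library 3 lay below mutant library 1, so the groups overlapped. The difference was -0.73 on the log2 scale (standard error 0.39, 95% confidence interval -1.59 to 0.13, adjusted p = 0.725), and it missed an unadjusted p of 0.05 as well. Without control library 3 it was -0.95 and passed the unadjusted threshold (adjusted p = 0.999), which it did under none of the other 11 alternatives, where it lay between -0.92 and -0.50 and the adjusted p was 0.537 to 0.939. The gene was thinly covered, with 328 counts over the 6 libraries.

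Il17rb lies on chromosome 14 from 29996135 to 30008896 on the reverse strand, head to head with Chdh, which encodes choline dehydrogenase. The starts of the 2 genes are 126 bases apart, and this shared stretch, chr14:30008897-30009022 (GRCm38.p6, from RefSeq), is shown because both genes begin at its ends and because their levels can be set side by side. It is written on the strand of Il17rb, from the start of Chdh towards the start of Il17rb, with motif matches in capitals.
Il17rb-Chdh: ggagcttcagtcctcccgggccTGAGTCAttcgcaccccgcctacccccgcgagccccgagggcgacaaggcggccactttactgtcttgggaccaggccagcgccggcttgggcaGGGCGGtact
The stretch has 69.8% GC and 11 CG dinucleotides, as against a median of 54.0% and 3 in the same length before 32851 gene starts of the RefSeq table. The first match in capitals is to the AP-1 motif TGANTCA, which 3.62% of those windows hold on either strand. The second is to the GC box GGGCGG, which 27.0% of them hold. The motifs do not overlap and were chosen after the sequence was seen, and a match describes letters only.

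Chdh had 25.8, 26.8 and 13.4 CPM in control libraries and 23.9, 9.14 and 14.6 CPM in mutant libraries. As for Il17rb, control library 2 was highest and mutant library 2 lowest, and the groups overlapped (log2 fold change -0.47, standard error 0.36, adjusted p = 0.798). At its other side Il17rb shares 141 bases of exon with Actr8, a chromatin remodelling gene on the opposite strand with 20.0 to 26.8 CPM and a log2 fold change of -0.11. The strand setting of the counting is not given in the sources used here, so reads on these bases cannot be assigned to one of the genes with certainty.

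Il17rc encodes the partner chain of IL-17RA for IL-17A and IL-17F and was, per length, the most abundant of the 5 receptor genes. It had 45.6, 66.1 and 54.6 CPM in control and 52.5, 38.8 and 61.0 CPM in mutant libraries, and the groups overlapped over most of their range. The log2 fold change of Il17rc was -0.13 (standard error 0.21, 95% confidence interval -0.60 to 0.34, adjusted p = 0.913). The interval excludes a halving or a doubling of Il17rc. The common chain Il17ra had 13.2, 17.0 and 14.9 CPM in control and 15.6, 12.0 and 18.9 CPM in mutant libraries, again with overlap and with a log2 fold change of 0.045 (with standard error 0.23, 95% confidence interval -0.47 to 0.56, adjusted p = 0.973). Il17ra too was thereby bounded within a 2-fold change in either direction. Without control library 1 its log2 fold change was -0.020, and without mutant library 3 it was -0.12. Il17ra lies on chromosome 6 from 120463247 to 120487559.

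Il17re, which encodes the chain used by IL-17C, had 2.14, 1.55 and 2.42 CPM in control and 0.797, 2.12 and 2.97 CPM in mutant libraries. Mutant library 1 was lowest and mutant library 3 highest, so the mutant libraries enclosed all 3 controls. Mutant and control differed by -0.054 on the log2 scale (standard error 0.60, adjusted p = 0.990). This rests on 7 to 31 counts per library, and the 7 counts of mutant library 1 have an exact Poisson interval of 2.81 to 14.4. Il17re and Il17rc follow each other on the forward strand of chromosome 6, from 113458484 to 113470758 and from 113471427 to 113483140, with 668 bases between them. Mutant library 2, the lowest for Il17rc, was not the lowest for Il17re.

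Il17rd, the gene of the FGF pathway inhibitor SEF, had 3.53, 3.11 and 4.92 CPM in control and 1.48, 3.67 and 5.63 CPM in mutant libraries. As for Il17re, the mutant libraries enclosed the controls, with library 1 lowest and library 3 highest. Its log2 fold change was -0.10 (standard error 0.52, adjusted p = 0.973). The value was 0.30 without mutant library 1 and -0.56 without mutant library 3, so its sign rests on single libraries. Il17rd lies on chromosome 14 from 27038941 to 27107286.

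In all, 0 of the 6 genes other than Il17b passed an adjusted p under 0.05 in edgeR, where 0.00619% of the 16152 genes tested did. None of the 6 passed an unadjusted p under 0.05, in DESeq2 as in edgeR. At this threshold 4.32% of all genes tested were lower and 2.89% higher in mutant libraries in edgeR, and 6.07% were called in DESeq2. In none of the 6 were the groups separated, whereas all mutant libraries lay below all controls for 5.96% of genes tested and above them for 5.45%. Of the 6 log2 fold changes, 5 were below 0 and 1 above 0, with a median of -0.12 beside -0.013 over all genes. Il17b itself belongs to the genes with separated groups, by the choice that selected it.

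**Figure D2:**
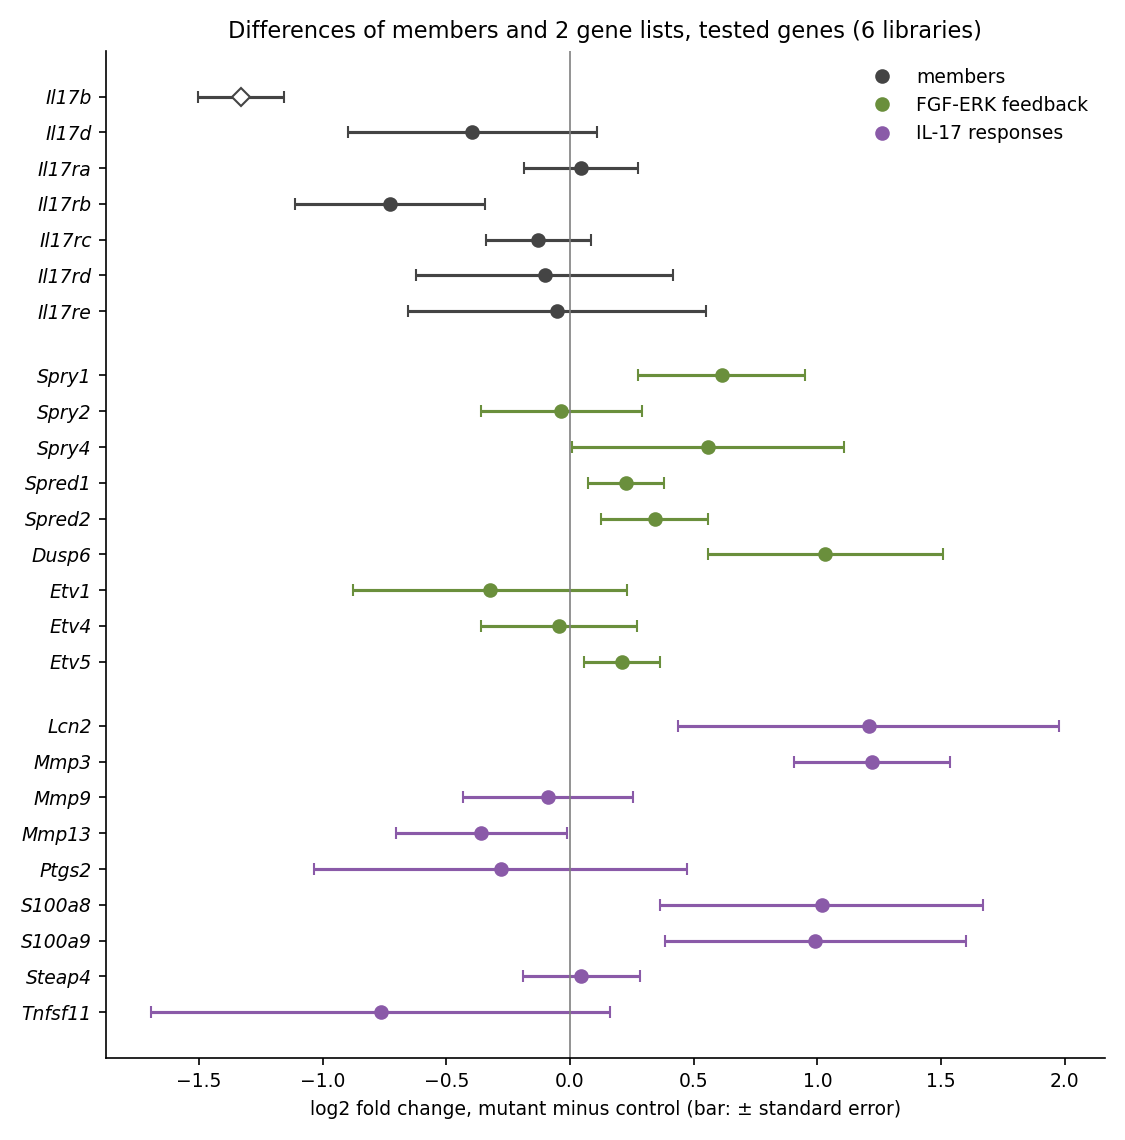
Log2 fold change of mutant over control (horizontal axis) with its standard error, for the 7 genes (grey, Il17b as an open diamond since it chose the set), 9 genes of FGF-ERK feedback (green) and the 9 tested IL-17 response genes (purple). Il17b lies at -1.33 and Il17rb at -0.73, and the errors of Il17d, Il17rd and Il17re are 0.50 or more.

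Levels of different genes were compared per length, as CPM per kilobase of exon. In control libraries Il17d was first with 117 ± 71.2 CPM per kilobase and Il17b second with 55.3 ± 6.85 (SD, n = 3), and their ranges overlapped. Il17rc came next with 20.7 ± 3.84, below Il17b in every control library. Il17rb with 1.85 ± 0.591 and Il17ra with 1.73 ± 0.221 did not differ beyond their spread, and both lay 11.2-fold or more below Il17rc. Il17rd with 0.351 ± 0.0865 and Il17re with 0.348 ± 0.0755 came last and did not differ beyond their spread. Among all tested genes with a length, the control level of Il17d was at the 98.1 percentile, of Il17b at the 96.0 percentile and of Il17rc at the 87.5 percentile, while Il17rb and Il17ra were at 29.5 and 28.0. Per length, the ligand gene Il17b was above its receptor gene Il17rb in all 6 libraries. In mutant libraries Il17b stood at 21.9 ± 2.63 CPM per kilobase, and its range of 19.5 to 24.7 overlapped that of Il17rc, 14.5 to 22.8. With the longest transcript as the length in place of all exons, Il17d, Il17b and Il17rc kept their order in control libraries at 117, 63.6 and 24.1 CPM per kilobase. Il17rb then had 2.66 against 1.94 for Il17ra, and Il17re had 0.694 against 0.466 for Il17rd.

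**Figure D3:**
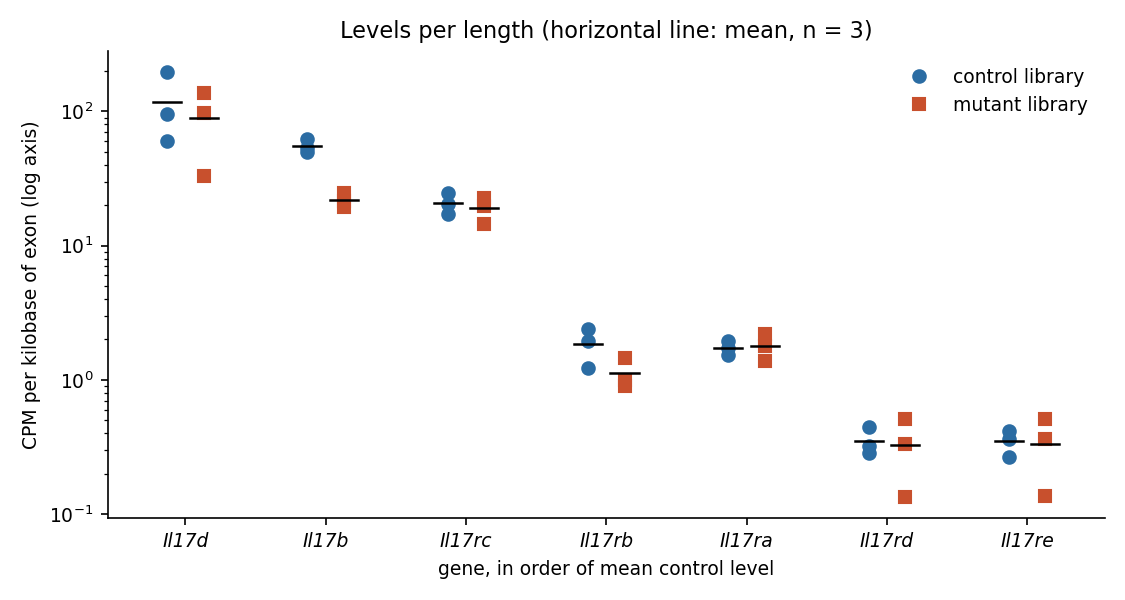
CPM per kilobase of exon (vertical log axis) of the 7 genes in order of their mean control level, with control libraries as blue circles, mutant libraries as orange squares and the mean of 3 as a line. The genes fall from about 117 for Il17d to 0.348 for Il17re, and Il17b in mutant libraries reaches the range of Il17rc.

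For the 7 genes, the libraries with the lowest and the highest value were read off as a description. Such shares over all genes were not taken, so these counts are not a result about the 7. Mutant library 2 was the lowest for 4 of the 7, Il17d, Il17ra, Il17rb and Il17rc, and mutant library 1 for the other 3. Control library 2 was the highest for 4, Il17b, Il17d, Il17rb and Il17rc, and mutant library 3 for the other 3. The libraries also differed in how deeply they covered GC-rich transcripts, those with a high share of G and C. Genes in the highest decile of GC deviated from the mean of all libraries by -0.25 on the log2 scale in mutant library 2. The deviation was 0.21 in mutant library 3 and 0.17 in mutant library 1, the lowest for Il17b. Il17rc at 62.0% GC, Il17d at 60.4% and Il17b at 59.5% are among the GC-rich genes, above 97.9%, 96.1% and 94.2% of those tested. Il17ra at 52.6% and Il17rb at 49.5%, also lowest in mutant library 2, were above 64.8% and 48.0%. After this trend was removed from each library, an alternative chosen after the data were seen, Il17rc ranged from 45.5 to 59.8 CPM instead of 38.8 to 66.1. Il17rc then had a log2 fold change of -0.20 (with standard error 0.15, adjusted p = 0.732). Il17d still ranged from 51.5 to 230.3 CPM, and the log2 fold change of Il17b was -1.36. The part of GC content in the spread of Il17d was not tested.

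**Figure D4:**
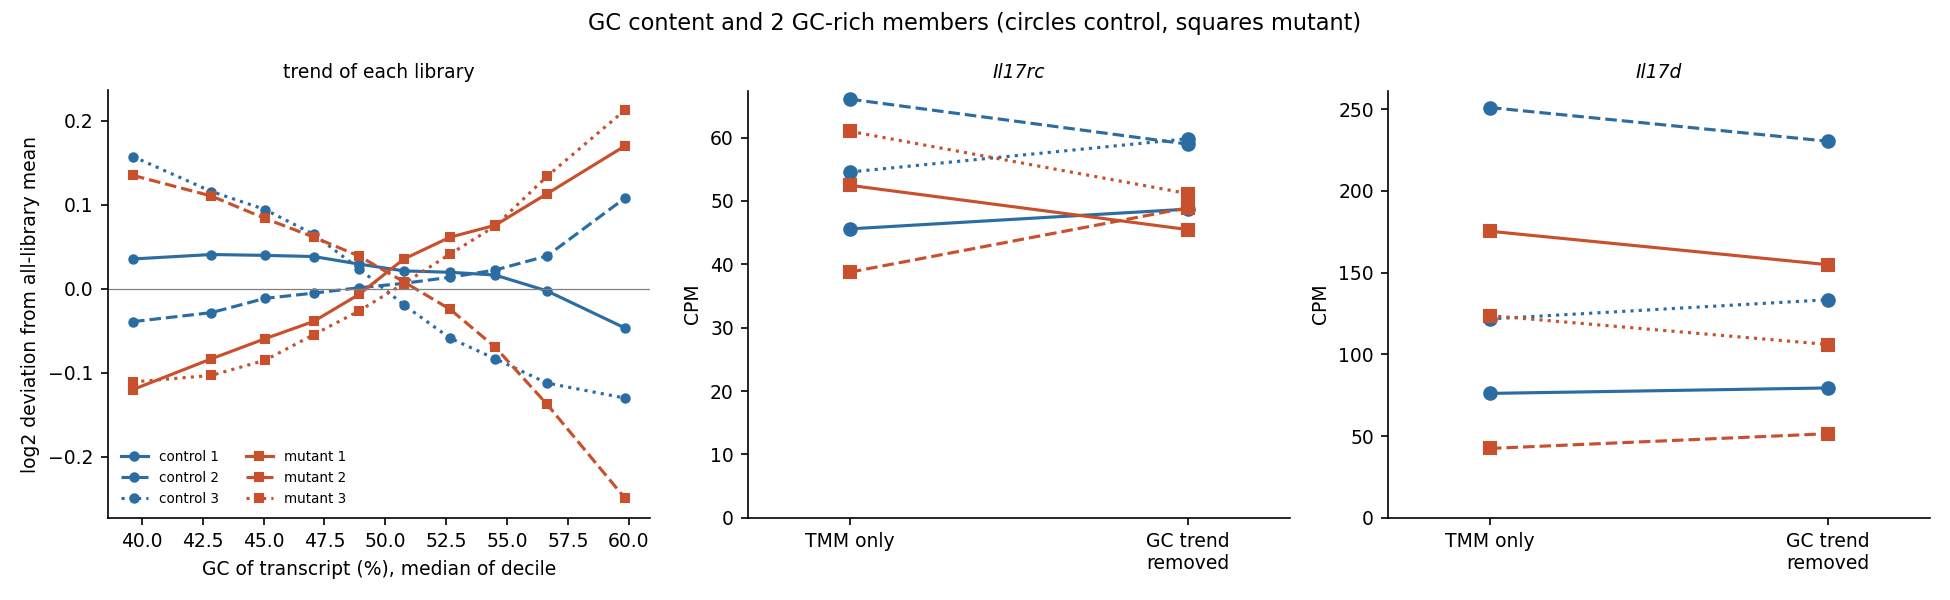
Left, log2 deviation of each library from the mean of all libraries (vertical axis) over deciles of transcript GC content (horizontal axis, percent). Centre and right, CPM of Il17rc and Il17d in each library before and after that trend is removed, where Il17rc narrows to 45.5 to 59.8 CPM and Il17d does not close up.

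Around Il17b, the nearest protein-coding gene on either side was measured, and nearest genes of other types were not looked up. Csnk1a1, a casein kinase gene, lies 94825 bases before the start of Il17b. Its level was 77.9 to 88.4 CPM in control and 95.2 to 109 CPM in mutant libraries. This is higher by 0.28 on the log2 scale (standard error 0.16, adjusted p = 0.743 from edgeR). Pcyox1l, 4298 bases beyond the end of Il17b, differed by 0.17 (standard error 0.23), so that both values were above 0 where that of Il17b was below. Gm38165, an antisense gene that shares 141 bases of exon with Il17b, has no row of its own in the counts. Beside Il17d, the methyltransferase gene N6amt2 had 24.5, 32.4 and 23.5 CPM in control and 16.7, 20.7 and 11.6 CPM in mutant libraries, a difference of -0.71 on the log2 scale (standard error 0.24) at an unadjusted p under 0.05 but an adjusted p of 0.676, while Ift88 on its other side had -0.29.

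The 5 genes whose log2 CPM followed that of Il17b most closely over the 6 libraries were Prss50, Cryl1, Ift74, Tmem120a and Ccdc12, with Pearson correlations of 0.981 to 0.986. The 6 points share library and depth and fall into the 2 genotypes, so genes with a steady difference between the groups come first. Prss50, a serine protease gene, had 35.7, 47.5 and 32.7 CPM in control and 10.5, 10.1 and 11.0 CPM in mutant libraries. Ccdc12, a splicing factor gene, had 67.1 to 74.5 CPM in control and 37.4 to 45.0 CPM in mutant libraries. Cryl1, a crystallin-like dehydrogenase gene, had log2 fold change -0.67, Tmem120a -0.44 and Ift74, of intraflagellar transport, -0.39. Il17b differed more between the groups than these last 4 and less than Prss50.

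Il17b was also set beside markers of the cells in a disc. The summed level of 7 markers of prehypertrophic and hypertrophic chondrocytes was 2943, 2123 and 1653 CPM in control and 1577, 1353 and 1300 CPM in mutant libraries, and as for Il17b the groups did not overlap. Of these 7 markers 5 were lower at an unadjusted p under 0.05 in edgeR, namely Ihh, Pth1r, Panx3, Mef2c and Runx2, where 4.32% of all genes tested were lower, and 0 passed the adjusted threshold. Without control library 1, which had the highest sum, 2 of the 7 were lower at that threshold, Ihh and Panx3, where 8.89% of all genes tested were lower. Ihh, the signal that paces chondrocyte maturation, had a log2 fold change of -1.49 and Panx3, a channel gene, of -1.25. The summed level of 8 chondrocyte markers overlapped, from 78793 to 134306 CPM in control and from 113657 to 140171 CPM in mutant libraries, and 1 of them, Matn3, was lower at an unadjusted p under 0.05 (log2 fold change -0.78, adjusted p = 0.676), a call that was lost without control library 1. Relative to the chondrocyte sum of its own library, Il17b was 1.55 lower on the log2 scale in mutant libraries (mean -12.6 against -11.0), and 1.01 lower without Col2a1 in the sum. Relative to the hypertrophic sum, a comparison added after seeing the data, it differed by -0.70, and control library 1 at -5.83 lay just below mutant library 2 at -5.81. The part of these cells in the level of Il17b was not tested.

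**Figure D5:**
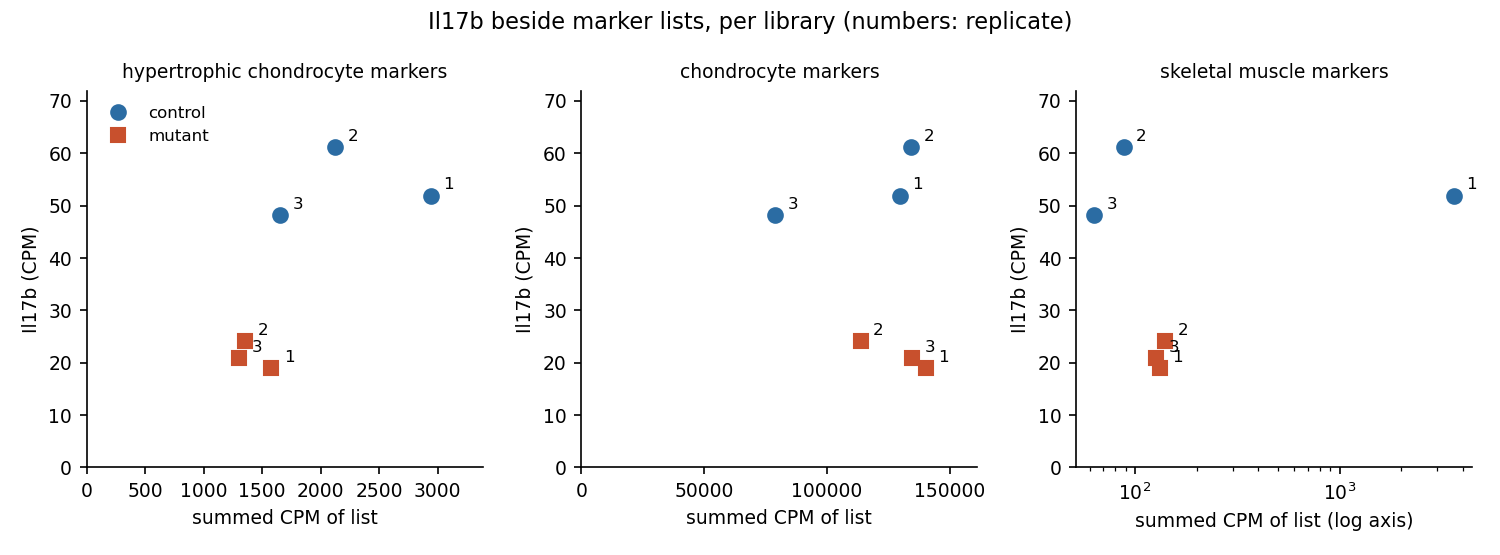
Level of Il17b (vertical axis, CPM) against the summed CPM of hypertrophic chondrocyte, chondrocyte and skeletal muscle markers (horizontal axes, the last on a log scale) in each library, numbered by replicate. Both Il17b and the hypertrophic sum are lower in every mutant library than in every control library, the chondrocyte sums overlap, and control library 1 stands alone in muscle markers at 3623 CPM.

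Markers of other cells went in both directions. Annulus and tendon markers Tnmd and Thbs4 were higher in mutant libraries at an unadjusted p under 0.05, as were Bglap and Bglap2 of osteoblasts, Mpo of neutrophil precursors, Cd68 of macrophages, Nefl of neurons and Slc4a1 of red blood cell precursors, while Phex of osteoblasts, Rbfox3 of neurons and Cdh1 of epithelium were lower. No marker of proliferating cells, nucleus pulposus or endothelium passed that threshold with all libraries, and the summed level of every list other than the hypertrophic one overlapped between the groups. All 6 muscle genes were lower in mutant libraries at an unadjusted p under 0.05, with the group sums overlapping. Of all genes tested 4.32% were lower and 2.89% higher at this threshold, and with all libraries 0 of these markers passed the adjusted one. Without control library 1, 0 of the 6 were lower and 3 were higher, as were 4 of 5 red blood cell genes and Dmp1 of osteoblasts, and Il23r of lymphoid cells was lower, in a fit that called 5.25% of all genes higher and 8.89% lower. Thbs4 passed the adjusted threshold in that fit (log2 fold change 1.40, adjusted p = 0.039 from edgeR), where 31 of the 17164 genes tested did. Among epithelial markers, Krt5 was at 0 counts in 5 of the 6 libraries.

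Downstream of the receptors, all 24 genes of a list of IL-17 signalling were tested. 1 of them was higher at an unadjusted p under 0.05 in edgeR, 0 were lower, and 0 passed the adjusted threshold, where 2.89% of all genes tested were higher and 4.32% lower, so the count is near that of all genes. The called gene, Cebpd, encodes the transcription factor C/EBP delta. It had 15.4, 13.7 and 12.2 CPM in control and 28.6, 20.0 and 22.0 CPM in mutant libraries, so that every mutant library was above every control (log2 fold change 0.77, standard error 0.21, adjusted p = 0.629). The median of the list was 0.13 beside -0.013 for all genes tested, with 17 members above 0 and 7 below. The 4 with the highest control level, Nfkb1, Srsf1, Rela and Traf3, had log2 fold changes of 0.15, 0.15, 0.18 and 0.11. Traf3ip2, the gene of the Act1 adaptor, named for its role after its value was seen, was at 17.7 to 24.8 CPM in control and 17.4 to 23.6 CPM in mutant libraries.

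Of 19 genes that IL-17 cytokines are known to induce, 9 passed the filter. Mmp3, which encodes stromelysin, a matrix protease, was the only one with an unadjusted p under 0.05, where 2.89% of all genes tested were higher and 4.32% lower. Mmp3 had 5.24, 9.55 and 5.16 CPM in control and 19.8, 13.5 and 13.1 CPM in mutant libraries, with no overlap (log2 fold change 1.22, standard error 0.32, adjusted p = 0.627). Without the low-count filter edgeR gave Mmp3 an adjusted p of 0.024, among 245 genes past 0.05 in that fit. The chemokine and cytokine genes of the list were close to 0: Cxcl2 and Ccl20 had 0 counts in all libraries, and Cxcl1, Cxcl5, Il6, Csf2, Csf3, Ccl2, Ccl7 and Il19 had 25 or fewer over all 6. Mmp9, a gelatinase gene, and Mmp13, a collagenase gene, had the highest control levels of the list, with log2 fold changes of -0.088 and -0.36 and overlapping groups. S100a9, an alarmin of myeloid cells, had a log2 fold change of 0.99 with a standard error of 0.61 and overlapping groups, and Steap4, a metalloreductase gene, of 0.046. The median of the 9 was 0.046, and it was 0.61 without control library 1.

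For the FGF-ERK feedback genes, read because Il17rd acts on that pathway, all 9 of the list were tested. In edgeR 0 of them had an unadjusted p under 0.05, where 7.21% of all genes tested did. Without the low-count filter edgeR and DESeq2 each gave 1, where 8.62% and 6.07% of all genes had such a p. That gene, Dusp6, encodes an ERK phosphatase and had 6.64, 3.44 and 1.95 CPM in control and 8.08, 5.39 and 11.0 CPM in mutant libraries (log2 fold change 1.03, standard error 0.48, adjusted p = 0.691 from edgeR). Without control library 1, 3 of the 9 had an unadjusted p under 0.05, namely Dusp6, Spry4 and Spred2, all higher, where 5.25% of all genes tested were higher, and without mutant library 2 there were 2, Dusp6 and Spry1, both higher, where 4.73% of all genes tested were higher. The 4 with the highest control level were Etv5, Etv4, Spred1 and Spred2, with log2 fold changes of 0.21, -0.045, 0.23 and 0.34. The median was 0.23 for the list, with 6 members above 0 and 3 below, beside -0.013 for all genes tested.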

How the data were processed

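The authors deposited raw counts per gene symbol for each of the 6 libraries. The submitters' processing notes name STAR 2.5.3a, HTSeq and DESeq2 with mm10 and GRCm38, whereas the paper's methods name HISAT2, StringTie and Ballgown. These sources differ on the aligner, so which one gave the counts is not settled here. The strand setting of the counting is not given in the sources used here. A deposited table of the authors' own comparison (fold changes, p-values and normalized values) was not used.

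Rows that name no gene were left out, and 40.4% to 44.2% of reads were on genes. A further 39.4% to 43.3% were aligned but on no annotated feature, for a reason that was not tested. Counts were tested with edgeR 4.0.16 in R 4.3.3: TMM scaling, filterByExpr with a count minimum of 10, 16152 genes, the quasi-likelihood test and Benjamini-Hochberg adjustment over all of them, with thresholds of 0.05. Standard errors are the log2 fold change divided by the square root of F. The scripts were tested on simulated data. Lengths and positions come from GENCODE M21 (GRCm38), as the union of exons. GC content was that of the transcripts, available for 98.5% of genes tested, and its trend was fitted with lowess (span 0.3). Alternatives were RLE scaling, no low-count filter, a block for the replicate number, tests with DESeq2 1.42.0 (run without the low-count filter) and limma-voom 3.58.1 with quality weights, leaving out each library and, added later, the GC correction. Nothing in the labels ties replicates to separate litters, so p-values measure the spread between these pools. Within each group, no 2 libraries agreed within sampling noise.

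Members and gene lists were chosen with earlier results of these data known. Genes named are the 7 members, the other ligands, the 5 genes most correlated with Il17b and the targeted gene. Overlapping genes and the nearest protein-coding genes are named too. In each list, those with an unadjusted p under 0.05 and up to 4 with the highest control level are named. Protein sequences were not used here. A listed marker is not reported here.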

Additional observations from a re-analysis of the deposited data

How the results depend on the processing

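The log2 fold change of Il17b kept its direction under all 12 alternatives, between -1.41 and -1.22. Relative to chondrocyte markers, Il17b differed by -1.55, by -1.01 without Col2a1 in the sum and by -0.70 with the hypertrophic list, and leaving out libraries gave -1.73 to -1.38. With libraries left out in turn, called members other than Il17b numbered 0 to 1 (Il17rb, without control replicate 3, -0.95), IL-17 signalling genes 1 to 2, IL-17 response genes 1 to 3 and FGF-ERK feedback genes 0 to 3, while 3.77% to 14.1% of all genes tested were called, as against 7.21% with all libraries. Without the low-count filter edgeR called 3 response genes (Mmp3, S100a8, S100a9) and 1 feedback gene, with Mmp3 past the adjusted threshold. In that fit 8.62% of all genes had an unadjusted p under 0.05. DESeq2, also without the filter, and limma-voom, with it, each called 1 feedback gene (Dusp6). Of all genes, 6.07% in DESeq2 and 9.14% in limma-voom had an unadjusted p under 0.05. With single libraries left out, the small log2 fold changes turned sign: Il17d ranged from -0.81 to 0.19 (0.017 without mutant replicate 2), Il17ra from -0.12 to 0.22, Il17rc from -0.28 to 0.050, Il17rd from -0.56 to 0.30 and Il17re from -0.46 to 0.35. Il17re was at 0.028 in limma-voom. Without control replicate 1, hypertrophic markers called fell from 5 to 2. The causes were not tested. Over all genes, adjusted calls numbered 1 in edgeR, 245 without the filter, 52 in DESeq2 and 31 without control replicate 1. They numbered 1 with RLE scaling and with the GC correction. With the replicate block, in limma-voom and without any other single library there were 0.

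With the replicate block the log2 fold change of Il17b was -1.33, 0 other members were called, and over all genes 1002 instead of 1164 had an unadjusted p under 0.05. Same-numbered libraries deviated with correlations of 0.159, -0.132 and 0.102. These were not all over 0.1, the threshold set for pairing, so the block stayed an alternative. Whether same-numbered libraries share a litter cannot be told from these values. Low counts limit Il17rd, Il17re and Il17rb.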
